A study of Mus musculus with 2 samples.

Results

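Collagens are the structural proteins of the extracellular matrix, built from triple helices of alpha chains that are each encoded by their own gene. Fibrillar collagens assemble into the cable-like fibrils of skin, tendon and bone. In cartilage, type II and type XI fibrils carry type IX on their surface. Basement membrane collagens form sheets under epithelia and around vessels. The embryonic face makes all of these kinds while its mesenchyme condenses into cartilage and membrane bone. The genes described here were the protein-coding genes of the GENCODE M21 annotation (mm10) whose symbol is Col, a number, a and a number. There were 44 of them among 21938 protein-coding genes. They comprised 7 fibrillar genes, 8 cartilage genes, 9 basement membrane genes and 20 other genes.

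The data were DNase-seq, in which DNase I cuts mark accessible chromatin, from embryonic facial prominence of healthy B6NCrl mouse embryos at embryonic day 14.5, male and female pooled. There was 1 group of 2 biological replicates from separate biosamples, so no comparison between conditions and no statistical test could be made. The replicates are described side by side, and values over collagens stand beside the same values over all protein-coding genes. The lists held 304233 peaks in replicate 1 and 217980 in replicate 2, each 150 bp wide with a score given by the authors, which reached 150. Read depth is not given in the sources used here, so a peak missing from a list does not show closed chromatin. In tissue of mixed cells, a region open in few cells and one weakly open in many cannot be told apart.

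A shared site was a run of peaks in which each replicate's peak overlapped the other's. A promoter site lay within 500 bp of a start site of the gene. A distal site lay over 1 kb from every annotated start site, within the gene body or 50 kb of it. Checked against marker genes of cell types, the tissue had shared promoter sites at 9 of 9 facial mesenchyme genes, 6 of 9 chondrocyte genes, 4 of 6 osteoblast genes, 6 of 6 epithelial genes, 4 of 5 endothelial genes, 5 of 5 muscle genes, 4 of 5 Schwann cell genes and 4 of 4 neuronal genes, beside 67.5% of all protein-coding genes. The chondrocyte and osteoblast counts, 66.7% each, were close to that share and say nothing about those cell types. None of 4 hepatocyte and none of 3 T cell markers had one.

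The following regions are those to which the results below return. For 6 of them the shared distal site ranked highest in its class, or among the sites of Col1a1 or Col1a2, by the mean of its score percentiles in both replicates. The remaining one is the site in the first intron of Col2a1 with the highest replicate 1 score. Each is printed as its 150 bp peak of replicate 1. Each is read 5′ to 3′ on the strand of its gene from GRCm38, the mm10 sequence. Capitals mark 3 words on either strand: ACAAAG or ACAATG, bound by SOX factors, TGANTCA, bound by AP-1, and CCAAT.
Col2a1 intron 16: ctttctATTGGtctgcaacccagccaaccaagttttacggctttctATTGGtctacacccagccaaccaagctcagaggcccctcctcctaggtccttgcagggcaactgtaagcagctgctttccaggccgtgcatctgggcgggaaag
Col2a1 intron 1: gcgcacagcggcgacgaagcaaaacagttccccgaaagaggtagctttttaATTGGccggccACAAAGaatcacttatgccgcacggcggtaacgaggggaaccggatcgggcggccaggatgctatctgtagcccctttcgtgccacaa
Col5a3 upstream: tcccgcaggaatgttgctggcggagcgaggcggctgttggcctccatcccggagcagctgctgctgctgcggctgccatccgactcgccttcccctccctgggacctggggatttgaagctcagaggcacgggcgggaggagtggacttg
Col1a1 upstream: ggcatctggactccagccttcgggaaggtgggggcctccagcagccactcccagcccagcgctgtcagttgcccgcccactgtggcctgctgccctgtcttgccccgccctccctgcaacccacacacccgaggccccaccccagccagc
Col1a2 upstream: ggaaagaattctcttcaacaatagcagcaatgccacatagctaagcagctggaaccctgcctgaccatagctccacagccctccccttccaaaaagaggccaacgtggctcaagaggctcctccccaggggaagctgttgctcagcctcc
Col4a4 downstream: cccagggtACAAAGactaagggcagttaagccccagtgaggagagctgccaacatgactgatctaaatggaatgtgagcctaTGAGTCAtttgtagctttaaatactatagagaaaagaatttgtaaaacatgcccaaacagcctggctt
Col6a1 upstream: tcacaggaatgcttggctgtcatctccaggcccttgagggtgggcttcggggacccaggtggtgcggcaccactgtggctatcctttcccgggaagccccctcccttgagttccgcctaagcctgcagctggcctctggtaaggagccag

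These regions were chr15:97992996-97993145 and chr15:98002136-98002285 for Col2a1, chr9:20830996-20831145 for Col5a3, chr11:94928936-94929085 for Col1a1, chr6:4488456-4488605 for Col1a2, chr1:82429196-82429345 for Col4a4 and chr10:76732976-76733125 for Col6a1. None overlapped an annotated UTR. The Col2a1 intron 16 peak held 2 CCAAT words inside direct repeats: acccagccaaccaag occurred at positions 18 and 57 of the sequence, and ctttctattggtct at positions 1 and 41. A direct repeat of 14 bp or more was present in 0.864% of the windows at all distal sites. The Col2a1 intron 1 peak held 1 SOX word and 1 CCAAT word, and the Col4a4 peak 1 SOX word and 1 AP-1 word. The Col5a3, Col1a1, Col1a2 and Col6a1 peaks held none of the 3 words.

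At promoters, 36 of 44 collagen genes (81.8%) had a shared site, against 67.5% of all protein-coding genes. With hotspots, the broader regions that the authors called, the count was also 36, against 68.2% of all genes. Taken alone, replicate 1 had a promoter peak at 38 of the 44, against 70.9% of all genes, and replicate 2 at 40, against 68.7%. All 7 fibrillar genes had a shared promoter site, as did 7 of 8 cartilage genes, 6 of 9 basement membrane genes and 16 of 20 others. Over all peaks at promoters the median score was 77 in replicate 1 and 64 in replicate 2. A gene's promoter scores below are those of the strongest peak of each replicate within 500 bp of its start sites. The peaks of such a pair did not always overlap each other.

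**Figure D1:**
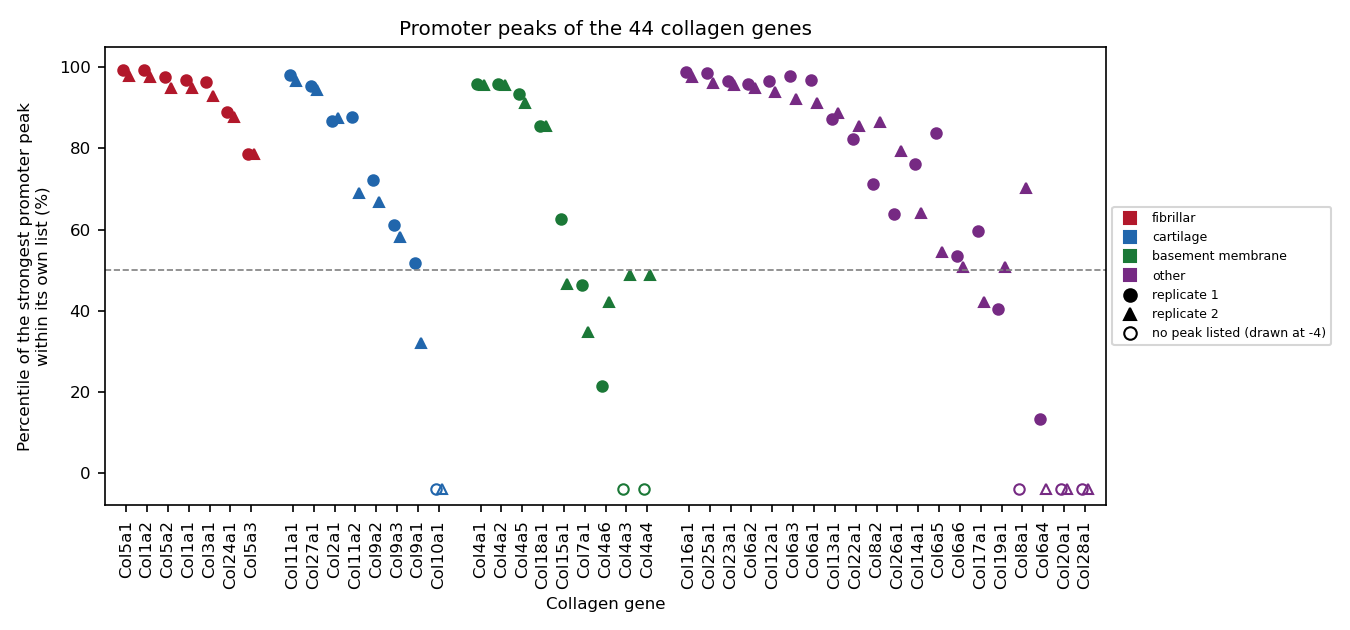
Percentile of the strongest promoter peak of each of the 44 collagen genes within all peaks of its own replicate, for replicate 1 (circles) and replicate 2 (triangles), with genes grouped by class and open symbols for genes with no promoter peak listed. The 7 fibrillar genes sit between 78.5 and 99.2%. The basement membrane class runs from 95.95% in replicate 1 for Col4a1 and Col4a2 to genes with no peak in that replicate.

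Among fibrillar genes, the promoter of Col1a2, which encodes the second chain of type I collagen, scored 140 in replicate 1 and 121 in replicate 2. That of Col1a1, the other chain, scored 122 and 102. Among all peaks of their lists these were percentiles of 99.2 and 97.7 for Col1a2 and of 96.9 and 94.99 for Col1a1. Col5a1 scored 140 and 122 and Col5a2 126 and 101; type V collagen sets the diameter of type I fibrils. Col3a1, the collagen of skin and vessel walls, scored 117 and 91. The 2 lowest of the class were Col24a1 (90 and 75) and Col5a3 (73 and 59), so the class spanned 73 to 140 in replicate 1 and 59 to 122 in replicate 2.

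Among cartilage genes with a shared site, scores ran from 51 to 130 in replicate 1 and from 29 to 113 in replicate 2. The highest was Col11a1 (130 and 113), a chain of type XI collagen, which nucleates cartilage fibrils. Col27a1, a fibrillar collagen of cartilage, scored 112 and 98. Col2a1, which encodes the main collagen of cartilage, scored 85 and 74, lower than 6 of the 7 fibrillar genes in each replicate. The 3 chains of type IX collagen, which decorates type II fibrils, were lower again, at 66 and 47 for Col9a2, 57 and 41 for Col9a3 and 51 and 29 for Col9a1. The Col9a3 peaks of 57 and 41 did not overlap, and its overlapping peaks scored 50 and 41. Col10a1, the collagen of hypertrophic chondrocytes, had no promoter peak in either replicate.

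Col9a1 has 2 annotated start sites, of which the downstream one, chr1:24195187, gives the short form that lacks the amino-terminal domain. The peak of Col9a1 lay at that start site, and the upstream one, chr1:24177610, had no peak in either replicate. In Col18a1, whose product releases endostatin, both starts were open: the first scored 83 and 70 and the downstream pair 57 and 38. The peaks of 57 and 38 did not overlap each other, although the downstream pair had a shared site. In Col22a1 and Col6a6 the first start site was open and the last had no peak, and in Col15a1 the first and last were open and the middle one had none.

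The basement membrane class ran from promoter scores of 115 and 107 to genes with no peak in replicate 1. Its 6 type IV genes, whose chains form the network of the basement membrane, lie in head-to-head pairs. The start sites of Col4a1 and Col4a2, the chains found in most basement membranes, are 21 bp apart, and a single peak over both scored 115 and 107. Col4a3 and Col4a4, chains used in the kidney filter and inner ear among others, start 127 bp apart and had a single peak in replicate 2, with a score of 36, and none in replicate 1. On the X chromosome, Col4a5 scored 103 and 84 and Col4a6 scored 36 and 33, at start sites 1309 bp apart. Col7a1, which anchors the epidermis, had peaks of 48 in replicate 1 and 30 in replicate 2 that did not overlap. Col18a1 is given above, and Col15a1, a related collagen of vessel and muscle basement membranes, scored 58 and 35. At its first start site these Col15a1 peaks did not overlap each other, although that start site had a shared site. At its last start site peaks of 55 and 35 overlapped.

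Among the 20 other genes, the 16 with a shared site spanned 45 to 136 in replicate 1 and 33 to 121 in replicate 2. The highest were Col16a1, a fibril-associated collagen (136 and 121), and Col25a1, a transmembrane collagen of neurons (135 and 110). With Col5a1, Col1a2 and Col11a1 these were the 5 highest promoters by mean percentile. The 3 chains of the common type VI microfibril scored 121 and 84 (Col6a1), 114 and 101 (Col6a2) and 128 and 88 (Col6a3). The later type VI genes were lower, at 80 and 39 for Col6a5 and 52 and 37 for Col6a6, and Col6a4 had a peak of 32 in replicate 1 only. Col8a1, a network collagen of vessels and the cornea, had a peak of 50 in replicate 2 only, whereas its partner Col8a2 scored 65 and 72. Col20a1 and Col28a1 had no promoter peak in either replicate.

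Collagen promoters had less CpG at the median than promoters as a whole. The ratio of observed to expected CpG in 500 bp on each side of the start site had a median of 0.453 over collagens and 0.606 over all genes. For a gene with several start sites the highest ratio was used, whether or not that start site had a peak. In the range below 0.25, 4 of 6 collagens had a shared promoter site, against 12.1% of 5440 genes. Between 0.25 and 0.5 it was 17 of 22 (77.3%), against 52.0% of 3774 genes. At 0.5 or more it was 15 of 16 (93.8%), against 95.8% of 12724 genes. The 4 open promoters in the lowest range were those of Col3a1, Col6a1, Col9a1 and Col22a1.

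**Figure D2:**
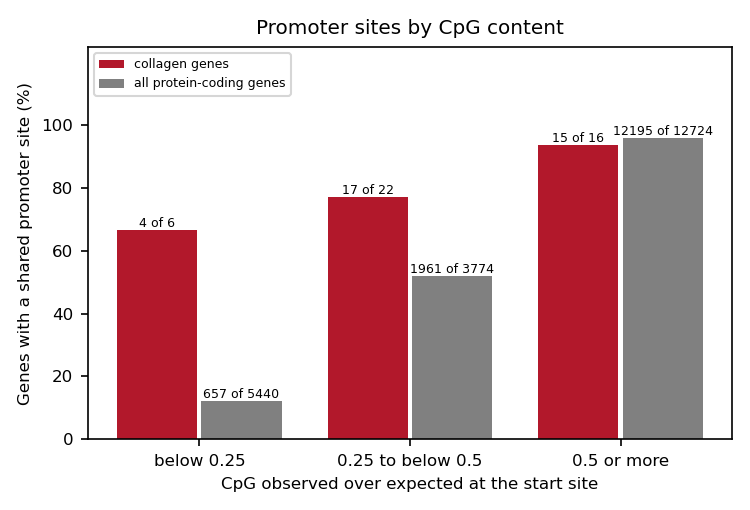
Percent of genes with a shared promoter site by the ratio of observed to expected CpG at the start site, for the 44 collagen genes (red) and all 21938 protein-coding genes (grey), with the counts above the bars. The ratio is the highest over the start sites of a gene. The bars differ most below 0.25, with 66.7% of collagens and 12.1% of all genes, and are close at 0.5 or more.

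The contrast shows in the sequence before the start sites of Col3a1 and Col5a1, printed as 250 bp from the RefSeq promoter table (GRCm38.p6), which held 35 of the 44 genes. Capitals mark CG. The Col3a1 region, chr1:45311288-45311537, had 0 CG and 35.2% G and C. The Col5a1 region, chr2:27886175-27886424, had 28 CG and 76.4% G and C.
Col3a1: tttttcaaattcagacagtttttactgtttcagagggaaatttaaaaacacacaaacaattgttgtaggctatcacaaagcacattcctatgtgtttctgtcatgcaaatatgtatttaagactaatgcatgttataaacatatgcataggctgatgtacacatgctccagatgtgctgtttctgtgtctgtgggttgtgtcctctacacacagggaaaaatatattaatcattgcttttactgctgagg
Col5a1: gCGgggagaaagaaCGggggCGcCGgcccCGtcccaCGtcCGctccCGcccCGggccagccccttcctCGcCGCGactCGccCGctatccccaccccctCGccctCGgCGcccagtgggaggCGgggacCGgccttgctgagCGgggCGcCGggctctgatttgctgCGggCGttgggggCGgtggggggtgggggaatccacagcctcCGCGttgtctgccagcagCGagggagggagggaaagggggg

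Both promoters were open in both replicates, at 117 and 91 for Col3a1 and 140 and 122 for Col5a1. The Col5a1 peaks were centred at -114 bp from the start site in both replicates, inside the printed sequence. The Col3a1 peaks were centred after the start site, at 53 bp in replicate 1 and 93 bp in replicate 2. They thus lay mostly (replicate 1) or wholly (replicate 2) outside the printed sequence.

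Away from promoters, the windows of the 44 genes held 846 different shared distal sites. The median collagen gene had 11.1 shared distal sites per 100 kb of its window that could hold one, against 6.52 for all protein-coding genes, whose quartiles were 3.12 and 10.1. Of the 44 genes, 31 lay above the median of all genes (50% of all genes) and 24 above their upper quartile (25% of all genes). Collagen genes are long, with a median length of 114 kb against 17.4 kb, so the windows of the sets differ in how much gene body they hold. Within gene bodies alone the medians were 8.87 and 3.60 sites per 100 kb. These were not matched for length either, so the part that gene length plays was not tested.

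**Figure D3:**
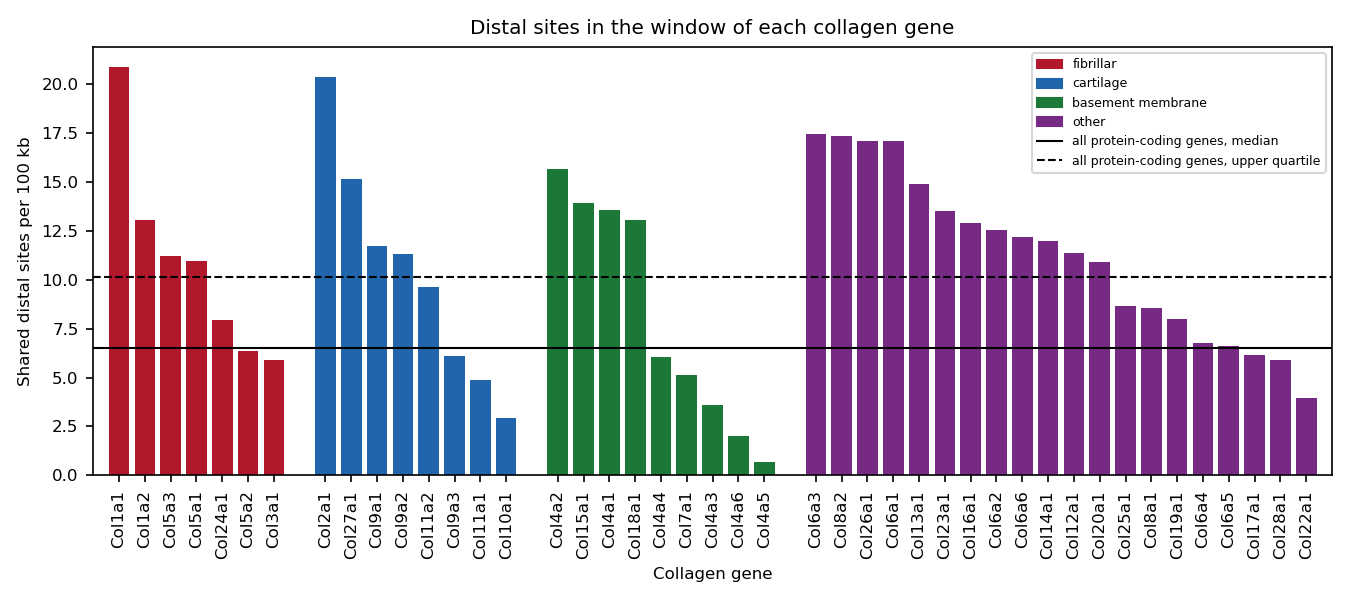
Shared distal sites per 100 kb in the window of each collagen gene (gene body and 50 kb on each side), by class, with the median (solid line, 6.52) and upper quartile (dashed line, 10.1) of all protein-coding genes. Col1a1 and Col2a1 reach 20.8 and 20.3, and the basement membrane class splits into 4 genes above 13 and 5 genes below the solid line.

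By class the medians were 11.0 for fibrillar, 10.5 for cartilage, 6.03 for basement membrane and 11.7 for other genes. The fibrillar class was led in density by Col1a1, with 21 sites (20.8 per 100 kb), and in number by Col24a1 with 28 and Col5a1 with 27. In the cartilage class Col27a1 had 31 sites, Col2a1 25 (20.3 per 100 kb) and Col9a1 20, while Col10a1 had 3. Among the others the transmembrane collagens Col23a1 and Col25a1 had 51 and 48 sites and Col26a1 had 39. Per 100 kb the highest of that class were Col6a3 (17.4), Col8a2 (17.3), Col26a1 (17.1) and Col6a1 (17.1).

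The basement membrane class split. Col4a1, Col4a2, Col15a1 and Col18a1 had 13.0 to 15.7 sites per 100 kb, with 28, 35, 27 and 26 sites. Col4a3, Col4a4, Col4a5, Col4a6 and Col7a1 had 0.662 to 6.03, with 8, 14, 2, 8 and 6 sites. The lowest, Col4a5 and Col4a6, are X-linked, and the 948 protein-coding genes of the X chromosome had a median of 1.99 sites per 100 kb, against 6.81 for autosomal genes. Col4a5 thus combined a promoter score of 103 and 84 with 2 distal sites.

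Neighbouring collagen genes share windows, so their sites are counted once per locus here. The Col4a1 and Col4a2 locus held 48 sites, Col6a4, Col6a5 and Col6a6 together 43, Col9a1 and Col19a1 40, Col6a1 and Col6a2 30, Col3a1 and Col5a2 20, Col4a3 and Col4a4 15, and Col4a5 and Col4a6 10. With its flanks the Col4a1 and Col4a2 locus spanned 351 kb and the Col4a3 and Col4a4 locus 374 kb.

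Distal peaks near collagens ranked above the middle of their lists. Their median percentile among all distal peaks was 60.9 in replicate 1 and 60.3 in replicate 2, where all distal peaks have 50. Of the 1436 distal peaks of replicate 1 in collagen windows, 59.7% overlapped a peak of replicate 2, against 55.9% of all its distal peaks. Of the 1018 of replicate 2, 85.2% overlapped one of replicate 1, against 83.6% of all. In replicate 1 the share was 69.9% near cartilage genes, 62.4% near the other genes, 53.8% near basement membrane genes and 50.6% near fibrillar genes. In replicate 2 the classes were close, at 85.6% for cartilage, 86.4% for other, 83.3% for basement membrane and 83.3% for fibrillar genes. With both lists limited to the same number of strongest peaks, the share was 69.7% near collagens and 69.2% over all distal peaks in replicate 1, and 80.3% and 73.5% in replicate 2.

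Sites were ranked by the mean of their percentiles among the distal peaks of each replicate. The strongest distal site of any collagen was the Col2a1 intron 16 site printed above, with scores of 144 and 117, percentiles of 99.98 and 99.8 among distal peaks and a distance of 11.6 kb from the first start site. At its promoter the same gene scored 85 and 74. Intron 1 of Col2a1, which in mouse holds a chondrocyte enhancer bound by SOX9, had 4 shared sites. They lay at 1.37 kb (scores 71 and 74), 2.22 kb (79 and 60), 2.49 kb (84 and 57, the sequence printed above) and 3.27 kb (65 and 52). In all, 10 of the 25 Col2a1 sites lay in its introns, 7 upstream and 8 downstream.

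The strongest fibrillar site lay at -16.01 kb from the start of Col5a3, with scores of 134 and 122. The nearest annotated start site, that of Rdh8, was 12.6 kb away. Col1a1 had the next, at -7.21 kb (131 and 110), with a site of 118 and 89 at -2.46 kb and one of 104 and 97 in its first intron. A shared peak at 0.947 kb (113 and 117) was too near the Col1a1 start site to count as distal. A further pair on the far side of Col1a1 lay next to other genes: at 53.6 kb (123 and 111) 1.17 kb from a start of Ppp1r9b, and at 42.9 kb (121 and 108) 2.80 kb from a start of Sgca. Which gene these serve was not tested.

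Col1a2 is known in mouse for a far-upstream enhancer that drives it in fibroblasts. A cluster of 4 shared sites lay at -17.0 to -15.4 kb from its start. The start of Gm37883, 4.33 to 5.89 kb away, was the annotated one nearest to these sites. Their scores were 121 and 101 at -17.0 kb (the sequence printed above), 58 and 33 at -16.4 kb, 124 and 84 at -15.95 kb and 104 and 81 at -15.4 kb. Another strong site lay at -47.7 kb (119 and 100). In its introns Col1a2 had 2 shared distal sites, of 53 and 32 and of 48 and 29, so its distal sites were mostly outside the gene. Stronger shared peaks inside the gene were too near a start site to count as distal. They lay at 0.898 kb in replicate 1 and 0.858 kb in replicate 2 (95 and 83) and at 1.48 kb (61 and 53).

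**Figure D4:**
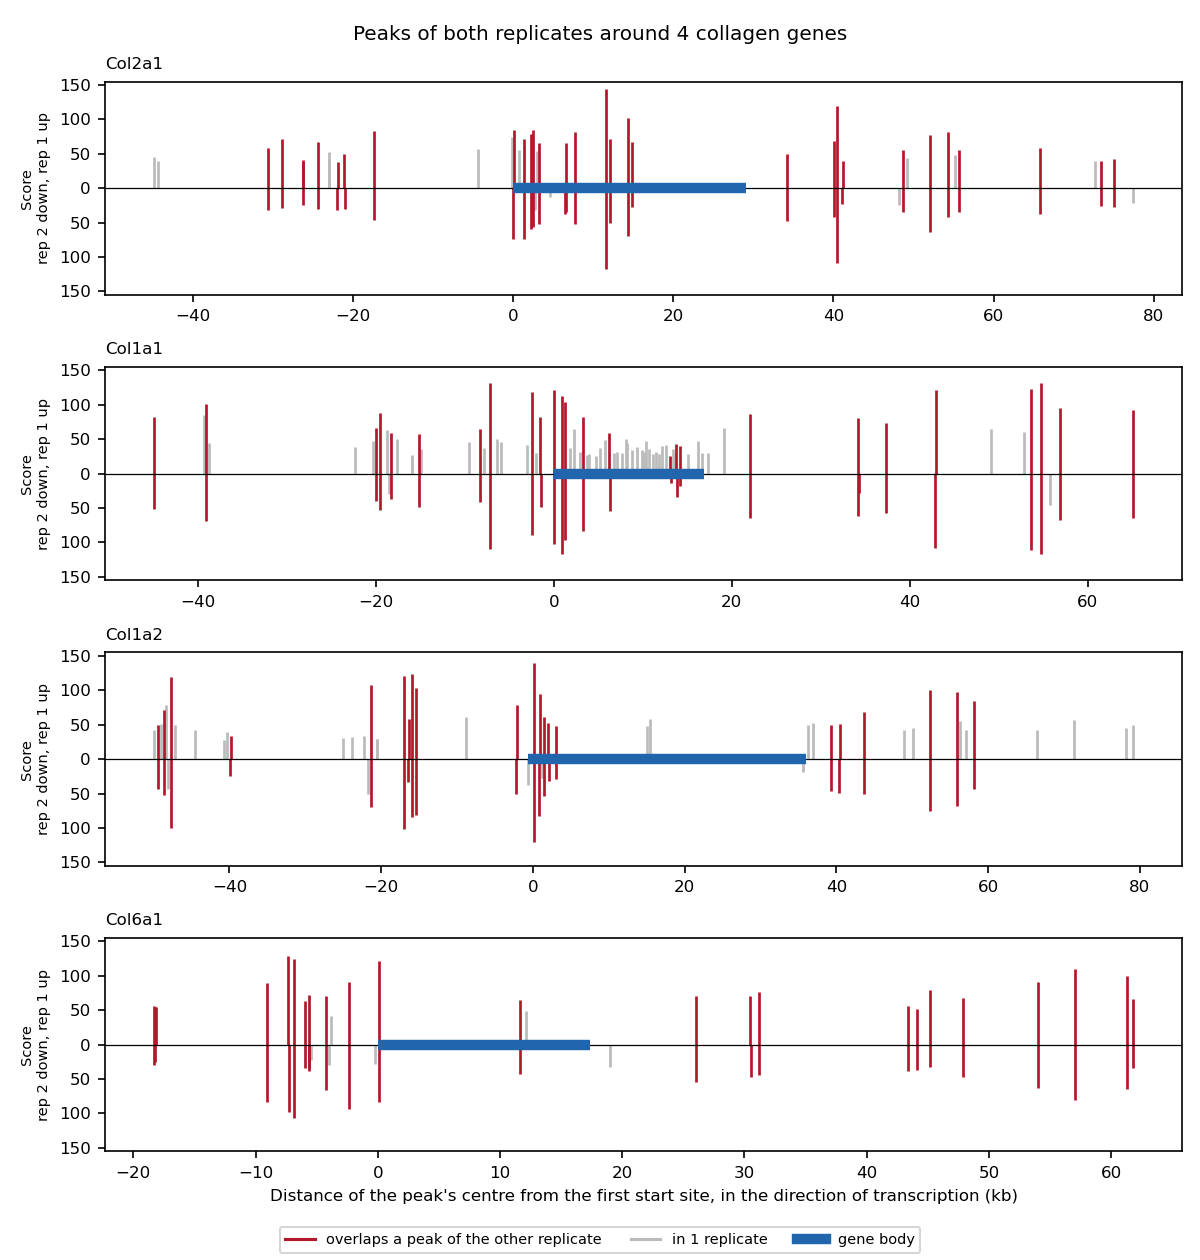
Score of every peak around Col2a1, Col1a1, Col1a2 and Col6a1 against the distance from the first start site in kb, replicate 1 upward and replicate 2 downward; red peaks overlap a peak of the other replicate, grey ones do not, and the blue bar is the gene body. The Col2a1 intron 16 site (144 and 117), the Col1a2 cluster at -17.0 to -15.4 kb and the row of grey peaks over the body of Col1a1 in replicate 1 stand out.

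Col6a1, a chain of the type VI microfibril, had its strongest sites at -6.85 kb (124 and 106) and -7.32 kb (129 and 98), in a run of 7 upstream shared sites. The annotated start site nearest to these strongest sites was that of Gm48276, 2.75 and 3.22 kb away. Which gene they serve was not tested. The strongest pair of Col26a1 lay in its introns, at 72.1 kb in intron 3 (132 and 95) and at 19.02 kb in intron 1 (127 and 96). The strongest site of the basement membrane class was not at Col4a1 or Col4a2. It lay downstream of Col4a4, inside Rhbdd1, with scores of 118 and 97, in a locus whose own promoter peak was listed in 1 replicate.

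Of the 846 sites, 56.9% lay in introns of collagen genes, which make up 56.5% of the window length that could hold a site. In the cartilage class these shares were 50.8% of sites and 36.2% of length, whereas they were 47.7% and 49.6% in the fibrillar, 66.7% and 66.3% in the basement membrane and 58.2% and 58.9% in the other class. The first intron alone accounted for 9.34% of sites and 6.54% of length over all collagens, and for 7.5% and 2.78% in the cartilage class. The nearest start site was that of a collagen for 258 of the 846 sites, and 62 sites in the flanks lay inside another protein-coding gene.

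The replicates differed most at Col1a1. Replicate 1 had 67 distal peaks in its window and replicate 2 had 23, a ratio of 2.91, where the ratio over all distal peaks was 1.48 and the median over collagens 1.43. Inside the gene body there were 35 peaks in replicate 1 and 6 in replicate 2. All 6 overlapped a peak of replicate 1, and the 29 peaks found in replicate 1 only had scores of 26 to 65 with a median of 35. Hotspots covered 67.7% of the 16.8 kb gene body in replicate 1 and 16.2% in replicate 2, while the medians over 17798 protein-coding genes of 5 kb or more were 4.34% and 3.27%. This was the largest excess of replicate 1 over replicate 2 among those genes: 0 had a larger one, and the next was Irx1, with 67.8% and 28.4%.

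**Figure D5:**
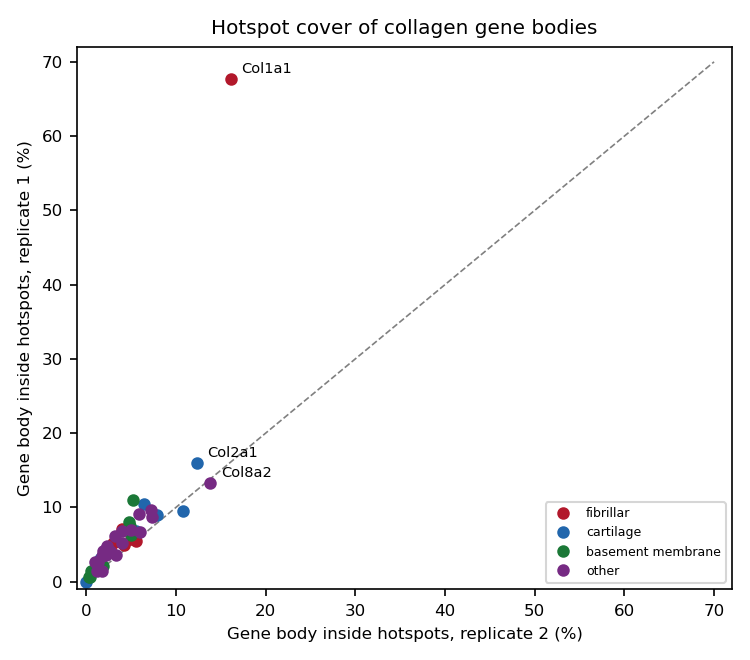
Percent of each collagen gene body inside hotspots in replicate 1 (vertical) against replicate 2 (horizontal), coloured by class, with the dashed line where both are equal. Col1a1 stands at 67.7% and 16.2%, and all other collagens are at or below 15.9% in replicate 1.

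Col1a2, whose product joins that of Col1a1 in type I collagen, did not share this: hotspots covered 5.41% of its body in replicate 1 and 5.55% in replicate 2. Col2a1 had 15.9% and 12.3%, and Col8a2 13.3% and 13.8%. Osteoblast markers, listed because bone makes much type I collagen, differed less in the body: over the 6 genes the excess of replicate 1 ran from -0.829 to 3.55 percentage points. Bglap and Spp1 had 0% in both replicates and so could not differ. Over the 9 chondrocyte markers the excess ran from -1.32 (Comp) to 9.86 (Matn4), with Sox9 at 9.37. Whether the cell types present differ between the replicates was not tested. At the promoters of the osteoblast markers, Sp7 scored 68 and 40, Ibsp 72 and 39, Alpl 75 and 73 and Runx2 97 and 99, and Bglap and Spp1 had no shared site. Sequencing instruments are listed for replicate 1 only, so a sequencing run cannot be told apart from the replicate. Without Col1a1, 57.4% of the fibrillar distal peaks of replicate 1 were found in replicate 2. In the other direction the largest difference was at Col4a3, with 13 distal peaks in replicate 1 and 15 in replicate 2.

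Short words were counted on both strands in 150 bp windows at the centres of the 846 sites, beside all 140270 distal windows. The SOX half-site (ACAAAG or ACAATG) was present in 19.2% of cartilage sites, 23.4% of fibrillar, 14.4% of basement membrane and 20.4% of other sites, against 19.9% of all distal sites. Among the 25 sites of Col2a1, 3 held it. The AP-1 word TGANTCA was present in 16 of 132 basement membrane sites (12.1%) and 5 of 120 cartilage sites (4.17%), against 6.58% of all. It was in 8.59% of fibrillar and 7.08% of other sites. Of the 16 basement membrane sites with it, 6 were at Col18a1. The GC box GGGCGG was present in 14 of 120 cartilage sites (11.7%), against 6.12% of all. The homeobox word TAATTA was present in 24 of 846 collagen sites (2.84%), against 4.18% of all. Further words counted over all collagen sites were TGTGGT of RUNX factors (15.1%, against 13.5% of all) and GGAATG of TEAD factors (14.9% and 12.6%). The rest were CCAAT (19.1% and 19.2%), the E-box CANNTG (65.8% and 66.7%) and TATAAA (4.96% and 6.45%). These are matches of letters and not binding sites.

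Outside the family, 59 genes that make, export, process, bind or degrade collagen were listed by role, and 53 of them (89.8%) had a shared promoter site, against 67.5% of all protein-coding genes. All 18 genes of modification and folding in the endoplasmic reticulum had one, as did 6 of 6 for secretion and 8 of 8 receptors. For removal of propeptides the count was 8 of 10, with none at Mep1a and Mep1b, which encode meprins. For crosslinking and fibril assembly it was 8 of 10, with none at Loxl2, a lysyl oxidase, and Tnxb, a tenascin. For degradation it was 5 of 7, with none at the collagenase gene Mmp8 and a peak of 34 in replicate 1 only at Mmp13, the collagenase of hypertrophic cartilage and bone.

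Examples from the list are P4hb, a subunit of prolyl hydroxylase, whose promoter scored 146 and 135, and Serpinh1, which encodes the main collagen chaperone, at 136 and 126. The most shared distal sites were at Adamts2, the procollagen N-proteinase, with 31, Itga11, a collagen-binding integrin, with 31, and P4ha2, a prolyl hydroxylase subunit, with 29. The median density was 9.75 sites per 100 kb over the list, beside 11.1 over collagens and 6.52 over all genes. Over the 56 cell type markers named above it was 9.98, with 9.79 for the 3 T cell and 4.75 for the 4 hepatocyte markers. A density above that of all genes was thus not particular to collagens or to this list.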

How the data were processed

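DNase-seq peaks and hotspots of 2 biological replicates were used as deposited in mm10. Per the labels' file descriptions, each list was derived from the filtered alignments of its own replicate and not pooled. The aligner is not given in the sources used here, nor is the caller or the depth. The authors' deposited peak score, a whole number up to 150 with no stated normalization, was used to describe and rank peaks within a list. The deposited hotspot value is the −log10 of a q-value by its format, from 1.30 to a ceiling of 100. Repeated coordinates were kept once and regions off the main chromosomes left out. Start sites and gene bodies were those of the basic GENCODE M21 annotation. A site was shared when peaks of both replicates overlapped by 1 bp or more, and a distal site was placed by its midpoint. A site in the windows of 2 genes was assigned to the nearer one for positions and motifs, with introns numbered in the transcript with most exons. Densities divide sites by the window length over 1 kb from every start site. Percentiles are mid-ranks within a list.

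Counts were made with Python 3.11.15, numpy 2.4.6 and pysam 0.24.0, and recovered all planted sites when tested on simulated data. The genes and lists were chosen with earlier results of these data known. Genes given with values were, by rule, the 3 with most distal sites per class, those without a shared promoter site, the 5 strongest promoters, the type IV pairs, neighbours, the 10 strongest sites and the largest replicate differences. Others were chosen after their values were seen.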

Additional observations from a re-analysis of the deposited data

How the results depend on the processing

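The alternatives were overlap by 50% of each peak, the upper 50% of each list by score, hotspots in place of peaks, other start sites, other windows and each replicate alone. Start sites of the comprehensive annotation were added after seeing the data. The count of collagens with a promoter site ran from 31 (upper 50% of each list) to 40 of 44 (replicate 2 alone). Under each setting the share of collagens was above that of all genes, and the median distal density was too (5.82 to 15.8 per 100 kb, against 3.01 to 11.2 for all genes). With the upper 50% of each list, that density was 5.82 over collagens and 5.68, 5.10, 2.57 and 6.05 in the fibrillar, cartilage, basement membrane and other classes. With 1 replicate alone it ran from 12.3 to 15.8 over collagens, and by class from 11.2 to 15.3, from 12.3 to 14.3, from 7.75 to 9.04 and from 13.4 to 17.1. The basement membrane median lay below that of all genes in the main count and with most settings, but above it for gene bodies, a 20 kb flank and a 2.5 kb distal minimum. The cartilage median was 14.9 for gene bodies alone, 8.61 with a 100 kb flank and 8.09 with a 2.5 kb distal minimum, and the median of the other class was 7.92 for gene bodies alone. With Col2a1, Col11a1, Col11a2 and Col27a1 counted as fibrillar, 11 of 11 fibrillar and 3 of 4 cartilage genes had a promoter site, and the cartilage density was 8.72. Among shared distal peaks alone the median percentiles of collagen peaks were 59.2 and 59.9. Overlap by 50% left 55.8% of replicate 1 and 79.1% of replicate 2 distal peaks found in the other list, and lists of equal length 69.7% and 80.3%, against 69.2% and 73.5% of all distal peaks, so the excess over all peaks nearly vanished in replicate 1 and widened in replicate 2. In windows of 300 bp, 35.1% of collagen sites held the SOX word, 12.1% the AP-1 word and 12.1% the GC box, against 36.5%, 11.4% and 9.38% of all distal sites. The homeobox word was in 7.92% of collagen sites at that width, against 8.81% of all. The intron share and the count for the biosynthesis list moved by no more than 1 percentage point and 1 gene. Depth is unknown, so the smaller list of replicate 2 limits the number of shared sites.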
